A study of Homo sapiens with 12 samples.

Results

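The genes whose symbol starts with PPP1R encode regulatory subunits and inhibitors of protein phosphatase-1 (PP1), and their mRNA levels were measured by RNA sequencing in a human colorectal carcinoma line, HCT116. The members are the protein-coding rows of the deposited table with such a symbol, which gave 42 of 58233 genes. A further 23 rows with a PPP1R symbol are pseudogenes or other RNA types and were used only as a check. Of the 42 members, 31 had enough counts to be tested, among 16657 tested genes in all.

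The libraries came from 4 groups with 3 libraries each, labelled as biological replicates. Parental cells (genotype HCT116 Tet-OsTIR1) carry the rice F-box protein TIR1 under a doxycycline-inducible promoter at both alleles of the AAVS1 locus, as the study's methods state. SDS22-degron cells are derived from these cells, keep the same transgene, and express SDS22, the product of PPP1R7, fused to an auxin-inducible degron and mClover. They were selected with hygromycin and G418 and grown from isolated colonies. Each line was sampled untreated and after 48 h of doxycycline (2 µg/ml) plus the auxin IAA (500 µM), together called Dox/IAA, so the parental cells received the same agents without a tagged SDS22. Below, "treated" means Dox/IAA-treated. A difference between the lines cannot be told apart from a difference between the colonies they were grown from, and the effects of Dox and of IAA cannot be told apart from each other.

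PP1 is a serine/threonine phosphatase whose catalytic subunit hardly acts alone in cells. It binds regulatory proteins, known as RIPPOs, that choose its place and its substrates, often through short docking motifs such as RVxF. SDS22 (PPP1R7) and Inhibitor-3 (PPP1R11) bind PP1 that has just been made, and the ATPase VCP takes this complex apart so that other subunits can bind. The other members bring PP1 to glycogen particles, myosin, chromatin, actin or the translation factor eIF2α, or block its active site.

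SDS22 was tagged by cutting PPP1R7 next to its stop codon. The guide is printed because it marks where the tag was placed. In the line below, the PAM read from the genome is in capitals.
SDS22 guide: agatcgatgccacgttcgtcAGG
The 20 bases of the guide had 1 match on chromosome 2 of GRCh37, chr2:242122210-242122229 on the plus strand. They lie in coding exon 10 of a PPP1R7 transcript and end 6 bases before the stop codon (242122236 to 242122238).

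Promoters are printed for 3 members on which results below turn: PPP1R12C, the member that changed most with Dox/IAA, and PPP1R15A and PPP1R15B, the eIF2α phosphatase subunits. They are from RefSeq (GRCh38.p14), 250 bases before to 50 bases after the gene's start. In the first pair the capitals mark the cyclic AMP response element (CRE) TGACGTCA, and in the last the C/EBP-ATF response element (CARE) TGATGNAA, which ATF4 can bind.
PPP1R12C: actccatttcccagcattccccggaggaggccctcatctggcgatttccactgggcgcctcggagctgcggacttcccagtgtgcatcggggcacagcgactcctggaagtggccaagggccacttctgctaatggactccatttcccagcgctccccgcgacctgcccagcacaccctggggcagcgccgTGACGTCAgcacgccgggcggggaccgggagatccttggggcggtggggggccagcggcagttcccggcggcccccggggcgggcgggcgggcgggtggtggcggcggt
PPP1R15A: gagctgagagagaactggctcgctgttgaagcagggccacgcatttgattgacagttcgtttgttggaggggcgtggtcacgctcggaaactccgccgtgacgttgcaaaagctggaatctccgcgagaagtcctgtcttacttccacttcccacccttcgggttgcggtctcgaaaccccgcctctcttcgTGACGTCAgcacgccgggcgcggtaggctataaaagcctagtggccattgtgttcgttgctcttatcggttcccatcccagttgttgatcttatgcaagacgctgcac
PPP1R15B: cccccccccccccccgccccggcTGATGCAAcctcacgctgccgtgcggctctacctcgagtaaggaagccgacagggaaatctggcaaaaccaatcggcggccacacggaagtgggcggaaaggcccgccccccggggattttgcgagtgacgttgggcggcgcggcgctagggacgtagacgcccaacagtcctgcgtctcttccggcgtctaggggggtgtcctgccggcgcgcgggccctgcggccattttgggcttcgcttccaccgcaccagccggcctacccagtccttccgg
The 3 windows are chr19:55117588-55117887 (minus strand), chr19:48872171-48872470 (plus strand) and chr1:204411768-204412067 (minus strand). The CRE starts 59 bases before the start of PPP1R12C and 58 bases before that of PPP1R15A, and it sits in a stretch of 22 bases that both promoters share, cgTGACGTCAgcacgccgggcg. Among 35116 promoters, 2 held this stretch on either strand, which are those of PPP1R12C and PPP1R15A.

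A promoter was matched for 33 of the 42 members, 26 of them tested. Each of 5 motifs was looked for on both strands, and the motifs were chosen with the expression values known. The CRE was in 2 of the 33 (6.06%), against 1.85% of all 35116 promoters, and the CARE was in 1 (3.03%), against 3.62%. The cell-cycle element CHR (TTTGAA) was in 2 (6.06% against 15.2%), and the CCAAT box (CCAAT) in 13 (39.4% against 34.6%). The core of the xenobiotic response element (GCGTG) was in 18 (54.5% against 36.5%). A match describes these letters and not a bound site.

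The gene counts of a library summed to between 12133915 and 14657508. The members together took between 0.142% and 0.162% of a library. The epithelial markers EPCAM, KRT8, KRT18 and CDH1 had at least 67.0 CPM (counts of a gene scaled to the library total and normalized by TMM) in every library, while VIL1 had at most 2 reads and CDX1 had 0. Markers of leukocytes and muscle summed to at most 0.531 CPM and those of endothelium to at most 1.73 CPM. COL1A1 (9.88 to 31.7 CPM) and SYT1 (79.3 to 194.1 CPM), listed as markers of fibroblasts and neurons, were detected, but COL3A1, PDGFRB and RBFOX3 had at most 4 reads. In bulk RNA, fewer expressing cells and less RNA per cell cannot be told apart.

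Levels between genes were compared per length, as RPKM (CPM divided by the gene length in kilobases). The highest mean over all libraries was that of PPP1R9B (spinophilin, an actin-binding scaffold) with 58.5 RPKM. PPP1R14B (a phosphorylation-dependent PP1 inhibitor) followed with 49.4 RPKM, but the order depended on the group. In untreated parental cells PPP1R14B was at 58.8 and PPP1R9B at 54.0 RPKM, and in treated SDS22-degron cells they were at 33.1 and 62.8 RPKM. Next in the mean over all libraries were PPP1R15B (28.1), PPP1R10 (27.6), PPP1R8 (26.9) and PPP1R35 (24.5). PPP1R11 was at 15.3 and PPP1R7 at 12.0 RPKM. The ranges over libraries of these last 2 genes overlapped, with 12.95 to 16.9 RPKM for PPP1R11 and 10.6 to 13.5 RPKM for PPP1R7. At the lower end were PPP1R12C (0.796), PPP1R1A (0.44) and PPP1R36 (0.168), and these 3 genes also had the largest log2 differences between groups. The place of PPP1R12C came from its untreated groups, since it was at 1.85 RPKM in treated SDS22-degron cells, above PPP1R3F (1.74) and PPP1R1C (1.44) there.

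The 11 members that were not tested had few or no reads over all 12 libraries. PPP1R1B (DARPP-32) had 32 reads, PPP1R3G 14, PPP1R27 12, PPP1R14D 11 and PPP1R16B 9, while PPP1R42, PPP1R3C and PPP1R3A had 1 each. PPP1R14A (CPI-17), PPP1R17 and PPP1R2P9 had 0, which allows a level of up to 0.206 to 0.253 CPM per library (3 reads). PPP1R14A lies inside SPINT2 on the other strand, which had 55980 reads. The inhibitor list thus lost 6 of its 12 members to the filter and the glycogen-targeting list 3 of 7.

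The first question was whether the complex that carries new PP1 changed at the mRNA level when its SDS22 protein was targeted. PPP1R7 and PPP1R11 were called in none of the 5 comparisons. PPP1R7 (ENSG00000115685, chromosome 2, 241149576 to 241183652, GRCh38) was at 40.1, 47.7 and 43.2 CPM in untreated and at 44.2, 50.01 and 42.1 CPM in treated parental cells. SDS22-degron libraries had 40.6, 45.7 and 45.8 CPM untreated and 48.1, 44.4 and 51.1 CPM treated. All 4 groups overlapped. The log2 fold change of PPP1R7 with Dox/IAA in SDS22-degron cells was 0.12 (standard error 0.0880, 95% confidence interval -0.06 to 0.31, quasi-likelihood test of edgeR, adjusted p = 0.265). The log2 difference of PPP1R7 between the treated lines was 0.08 (standard error 0.0882, adjusted p = 0.513). PPP1R7 overlaps PASK by 689 bases on the other strand.

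PPP1R11 (Inhibitor-3, ENSG00000204619, chromosome 6, 30066709 to 30070333) was at 38.3, 38.4 and 42.8 CPM in untreated parental cells and at 41.8, 40.8 and 37.4 CPM in treated ones. SDS22-degron libraries held 33.8, 37.1 and 42.7 CPM of PPP1R11 untreated and 32.9, 39.03 and 39.8 CPM treated. Again the 4 groups overlapped. Dox/IAA moved it by -0.02 on the log2 scale in SDS22-degron cells (standard error 0.0963, 95% confidence interval -0.23 to 0.18, adjusted p = 0.859), and between the treated lines it was -0.11 (standard error 0.0963, adjusted p = 0.398).

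**Figure D1:**
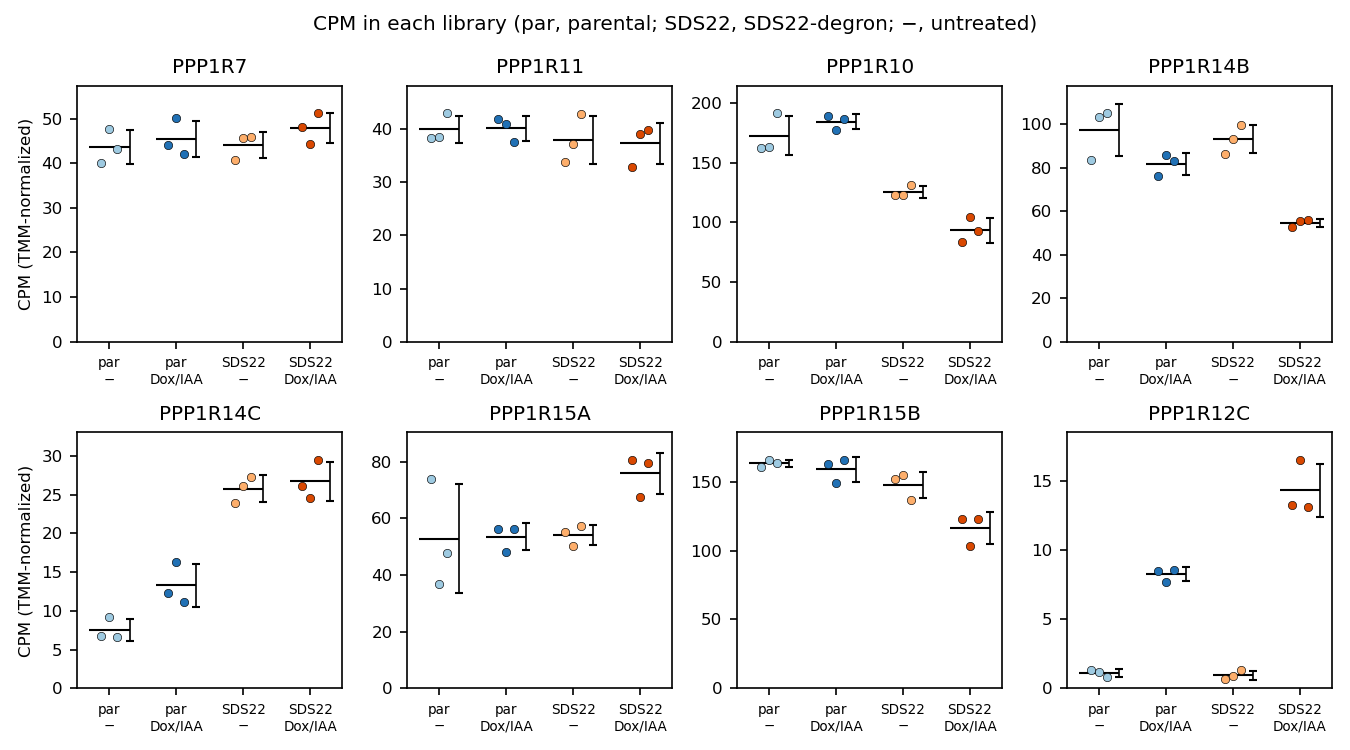
CPM (TMM-normalized) of 8 PPP1R genes in each library, with the mean (line) and SD (bar) of the 3 libraries of each group. PPP1R7 and PPP1R11 overlap in all groups, whereas PPP1R10 and PPP1R14B are lowest in treated SDS22-degron cells (means 93.6 and 54.7 CPM) and PPP1R12C is near 1 CPM in untreated cells of both lines.

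The comparisons asked what Dox/IAA changed within each line and how the lines differed with and without it. A gene was called at an adjusted p under 0.05 (quasi-likelihood test of edgeR, adjusted by Benjamini-Hochberg over all 16657 tested genes). Of the 31 tested members, 25 were called in at least 1 of the 5 comparisons and 6 in none (PPP1R7, PPP1R11, PPP1R9A, PPP1R9B, PPP1R12B and PPP1R32). The share of all tested genes called in at least 1 comparison was not computed, so this count is no trait of the members. With Dox/IAA in SDS22-degron cells, 15 members rose and 6 fell. Of all tested genes, 51.5% were called in this comparison, 26.0% higher and 25.5% lower. In parental cells, 9 members rose and 1 fell, where 31.6% of all genes were called (15.9% higher and 15.7% lower). The median log2 fold change of the tested members was 0.23 in SDS22-degron and 0.10 in parental cells, while that of all tested genes was 0.00 in both. The 9 members called within both lines (29.0% of the tested members) moved in the same direction in both. Of all tested genes, 23.4% were called in both lines in the same direction, which is 97.9% of those called in both. These 2 comparisons share no library.

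Between the treated lines, 10 members were higher and 8 lower in SDS22-degron cells (44.9% of all genes were called, 21.8% higher and 23.1% lower). Between the untreated lines, 8 were called, as were 28.2% of all genes. PPP1R1A, PPP1R3F, PPP1R13B, PPP1R14C and PPP1R37 were higher in SDS22-degron cells, and PPP1R8, PPP1R10 and PPP1R18 were lower. The interaction is the difference between the Dox/IAA effects of the lines on the log2 scale. It was called for 3 members, all of them lower (PPP1R10, PPP1R14B and PPP1R14C), where 14.4% of all genes were called, 6.03% higher and 8.35% lower. The study used an unadjusted p under 0.05 together with a log2 fold change of more than 1 in either direction. At that cut-off, the members called numbered 3 between the treated lines, 3 between the untreated lines, 3 with Dox/IAA in SDS22-degron cells, 4 in parental cells and 1 in the interaction. The shares of all genes at this cut-off were 6.63%, 4.14%, 7.83%, 3.14% and 3.60%.

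**Figure D2:**
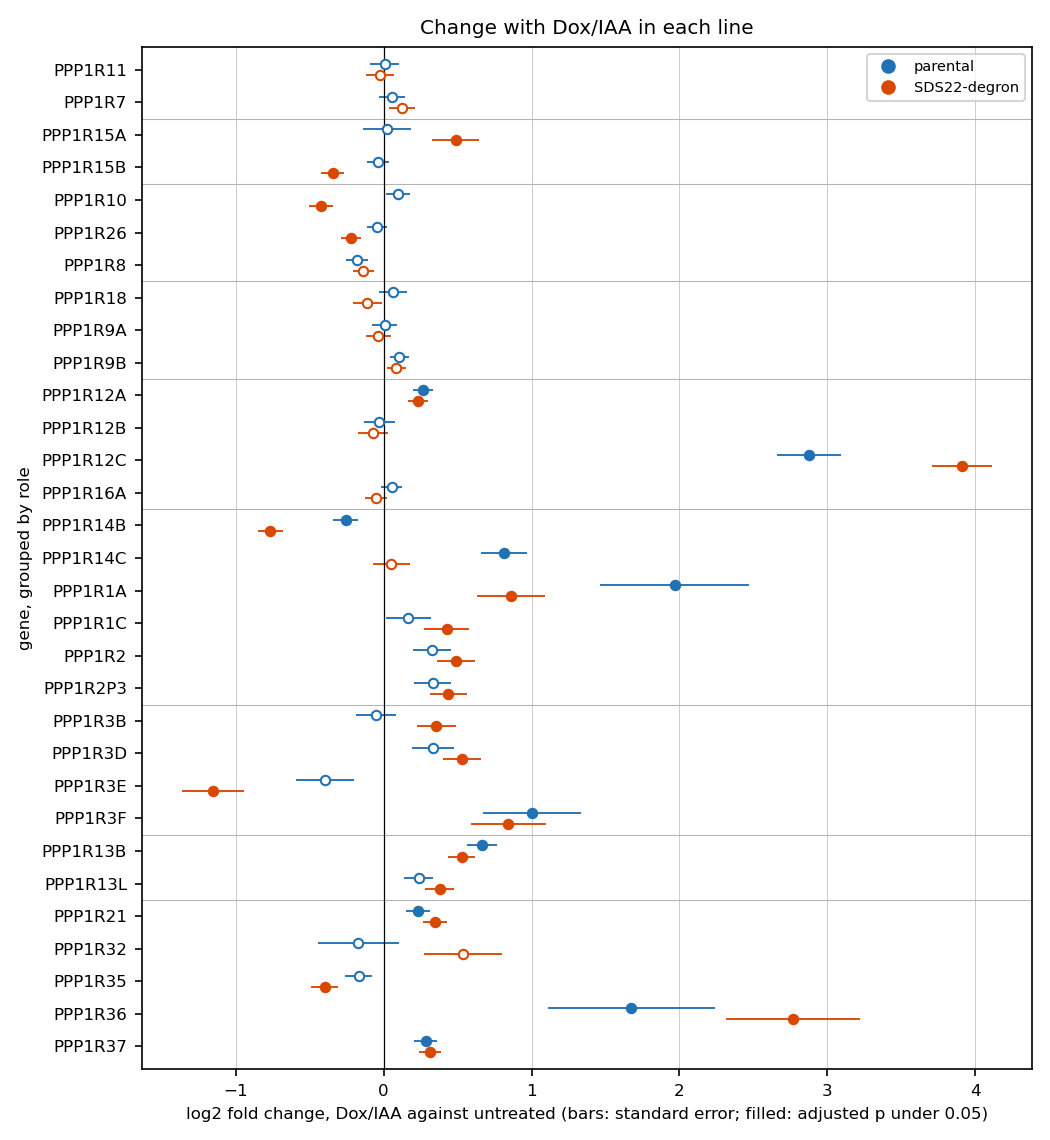
Log2 fold change with Dox/IAA of the 31 tested PPP1R genes in parental (blue) and SDS22-degron cells (orange), grouped by role. Bars are standard errors and filled points have an adjusted p under 0.05. PPP1R12C rose most in both lines (2.87 and 3.91), and PPP1R3E was lowest in both (-0.40, not called, and -1.154).

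Among the myosin phosphatase targeting subunits, 4 of 5 were tested. Dox/IAA raised 2 of them in each line, PPP1R12C and PPP1R12A, and left PPP1R12B and PPP1R16A uncalled. Of all genes, 26.0% were called higher in SDS22-degron and 15.9% in parental cells. PPP1R12C (MBS85, ENSG00000125503, chromosome 19, 55090913 to 55117559, GRCh38, minus strand) was at 1.35, 1.17 and 0.824 CPM in untreated parental cells and at 0.656, 0.894 and 1.29 CPM in untreated SDS22-degron cells. With Dox/IAA it was at 8.47, 7.66 and 8.57 CPM in parental and at 13.3, 16.5 and 13.1 CPM in SDS22-degron cells. The untreated libraries held 9 to 17 reads of this gene each and the treated ones 97 to 213, without overlap. PPP1R12C changed by 2.87 on the log2 scale (standard error 0.214, adjusted p = 6.68e-08) in parental and 3.91 (standard error 0.1997, adjusted p = 3.09e-10) in SDS22-degron cells, or 7.33-fold and 15.03-fold. By log2 fold change it ranked 10 of 16657 genes in parental and 6 in SDS22-degron cells.

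PPP1R12C was also higher in treated SDS22-degron than in treated parental cells, with a log2 difference of 0.79 (standard error 0.1403, adjusted p = 0.000157). The untreated lines overlapped. Its interaction was 1.04 (standard error 0.3504) and missed the threshold (adjusted p = 0.0553, with 0.0323 to 0.186 over 21 alternatives, of which 7 called it). Without replicate 3 of untreated parental cells or of untreated SDS22-degron cells it was 1.21 (adjusted p = 0.0457) and 1.31 (adjusted p = 0.0323). As background, the AAVS1 site, which holds the doxycycline-inducible OsTIR1 transgene in both lines, is in the first intron of PPP1R12C. How far reads that start in the transgene contribute to these counts was not tested.

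The genes around PPP1R12C were looked at because of this insertion. Within 100 kb of its start, 8 other genes were tested. In parental cells 3 were higher and 1 lower with Dox/IAA, and in SDS22-degron cells 2 were higher and 2 lower. Of all tested genes, 31.6% were called in parental and 51.5% in SDS22-degron cells. The log2 fold changes of these 8 neighbours ran from -0.31 to 1.40 in parental and from -0.86 to 1.14 in SDS22-degron cells, all below that of PPP1R12C. EPS8L1, whose start lies 45.5 kb further in the direction of transcription, rose by 0.93 (adjusted p = 4.39e-05) and 1.14 (adjusted p = 6.07e-07) on the log2 scale. TNNT1, 31.8 kb in the other direction, had 0.10 (adjusted p = 0.321) and 0.12 (adjusted p = 0.174).

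**Figure D3:**
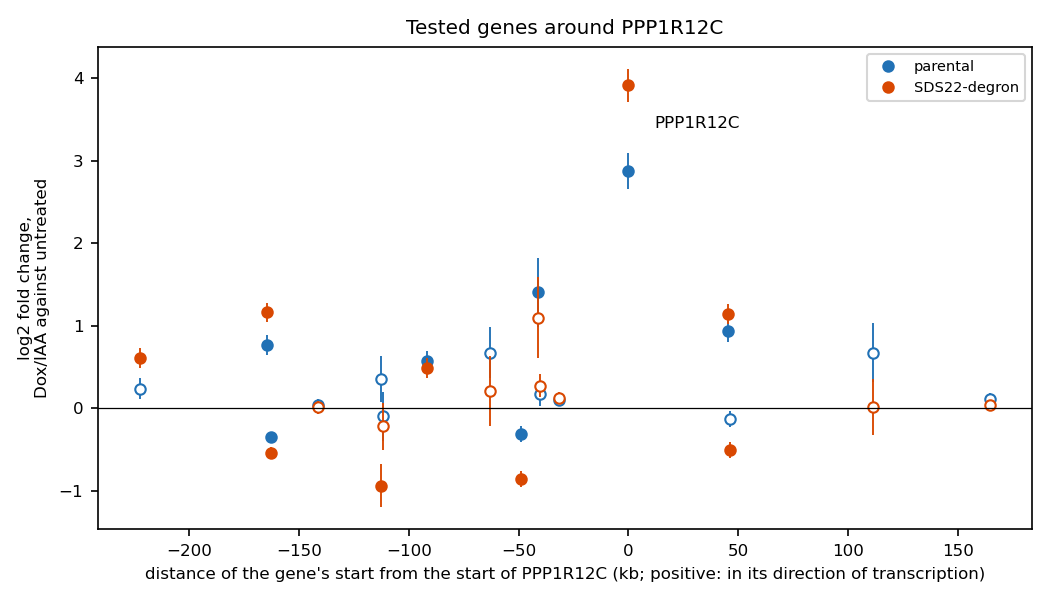
Log2 fold change with Dox/IAA of the tested genes whose start is within 250 kb of that of PPP1R12C, against the distance in kb, in parental (blue) and SDS22-degron cells (orange). Bars are standard errors and filled points have an adjusted p under 0.05. PPP1R12C stands above its 16 neighbours, which run from -0.35 to 1.40 in parental and from -0.94 to 1.16 in SDS22-degron cells.

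PPP1R12A (MYPT1, the main myosin phosphatase targeting subunit of non-muscle cells) changed much less and about equally in both lines. It was at 84.6, 91.5 and 80.5 CPM in untreated and at 99.3, 103.4 and 105.4 CPM in treated parental cells. In the other line it was at 94.4, 92.0 and 86.6 CPM untreated and at 105.6, 103.1 and 112.5 CPM treated. Within each line the treated libraries lay above the untreated ones. The log2 fold change of PPP1R12A was 0.26 (standard error 0.0670, adjusted p = 0.00582) in parental and 0.23 (standard error 0.0665, adjusted p = 0.00658) in SDS22-degron cells. Without replicate 3 of treated SDS22-degron cells it was 0.18 (adjusted p = 0.0569). PPP1R16A (MYPT3) was lower in treated SDS22-degron than in treated parental cells by a log2 difference of -0.23. This call was lost without replicate 1 of treated SDS22-degron cells (-0.15, adjusted p = 0.107) or replicate 2 of treated parental cells (-0.19, adjusted p = 0.0615). Other tested genes within 5 Mb of PPP1R16A had median log2 differences of -0.27 between the treated and -0.24 between the untreated lines.

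All 3 nuclear subunits were lower in treated SDS22-degron than in treated parental cells, where 23.1% of all tested genes were called lower. Their median log2 difference was -0.29, against -0.01 for all tested genes. PPP1R10 (PNUTS, which brings PP1 to chromatin and RNA polymerase II and acts in transcription termination; ENSG00000204569, chromosome 6, 30600400 to 30618612) had the smallest p of all members in this comparison. It was at 163, 163 and 191 CPM in untreated and at 189, 177 and 187 CPM in treated parental cells. SDS22-degron libraries had 123, 123 and 131 CPM untreated and 83.4, 104.1 and 93.1 CPM treated. No library of SDS22-degron cells reached the parental range, and within that line the treated libraries lay below the untreated ones.

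PPP1R10 differed by -0.98 (standard error 0.0813, adjusted p = 3.78e-08) on the log2 scale between the treated lines and by -0.46 (standard error 0.0801, adjusted p = 0.00033) between the untreated lines. Dox/IAA gave -0.43 (standard error 0.0814, adjusted p = 0.000252) in SDS22-degron cells and 0.10 (standard error 0.0794, adjusted p = 0.389) in parental cells. The interaction of PPP1R10 was -0.52 (standard error 0.1137, adjusted p = 0.0046). WDR82 and TOX4 are known to share a nuclear complex with PNUTS. WDR82 was lower between the treated lines (log2 difference -0.59, adjusted p = 6.17e-07) and between the untreated lines (-0.35, adjusted p = 0.000335). It lies on chromosome 3, where 938 tested genes had median log2 differences of -0.26 between the treated and -0.27 between the untreated lines. TOX4 had 0.14 (adjusted p = 0.0826) and 0.01 (adjusted p = 0.894) in these comparisons. PPP1R10 overlaps MRPS18B by 904 bases on the other strand.

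PPP1R8 (NIPP1, a nuclear PP1 inhibitor and scaffold tied to splicing and gene repression) was lower in SDS22-degron cells by -0.29 on the log2 scale when both lines were treated (adjusted p = 0.00365) and by -0.33 when both were untreated (adjusted p = 0.0021). With Dox/IAA it had -0.14 (adjusted p = 0.131) in SDS22-degron and -0.18 (adjusted p = 0.066) in parental cells. Without replicate 1 of the treated SDS22-degron cells or of the treated parental cells, these were -0.22 (adjusted p = 0.0278) and -0.24 (adjusted p = 0.0301). With the replicate number as a block, PPP1R8 was called in parental cells (-0.18, adjusted p = 0.0394). Other tested genes within 5 Mb of PPP1R8 had median log2 differences of -0.16 between the treated and -0.19 between the untreated lines. Those within 5 Mb of PPP1R10 had 0.02 and 0.00. The pseudogene PPP1R8P1 was lower as well, by -0.52 (adjusted p = 0.0103) and -0.46 (adjusted p = 0.0265). PPP1R26 fell by 0.22 on the log2 scale with Dox/IAA in SDS22-degron cells (adjusted p = 0.0105, and 0.0653 without replicate 2 of the untreated SDS22-degron cells) and was lower by -0.26 between the treated lines.

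PPP1R15A (GADD34) and PPP1R15B (CReP) bring PP1 to phosphorylated eIF2α and so reverse the block on translation in the integrated stress response. GADD34 is known as the stress-induced and CReP as the constitutive subunit. With Dox/IAA in SDS22-degron cells PPP1R15A rose and PPP1R15B fell, and the interaction was called for neither. Their values are given in full although the rule for named genes did not ask for it, so this was chosen after they were seen. PPP1R15A was at 74.1, 36.8 and 47.8 CPM in untreated and at 56.5, 48.1 and 56.2 CPM in treated parental cells. SDS22-degron libraries had 55.1, 50.1 and 57.3 CPM untreated and 80.7, 67.4 and 79.6 CPM treated. The 3 untreated parental libraries alone spanned most of this range, and replicate 1 there lay above 1 of the treated SDS22-degron libraries.

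The log2 fold change of PPP1R15A with Dox/IAA was 0.49 (standard error 0.1589, adjusted p = 0.0157) in SDS22-degron and 0.02 (standard error 0.1626, adjusted p = 0.935) in parental cells. Between the treated lines it was 0.50 (adjusted p = 0.0155). Its interaction was 0.46 (adjusted p = 0.185). With DESeq2 both calls were lost, with 0.50 (adjusted p = 0.0568) in SDS22-degron cells and 0.51 (adjusted p = 0.0545) between the treated lines. The call in SDS22-degron cells was also lost with any of 3 of the 6 libraries left out, which were replicate 2 of the untreated cells (adjusted p = 0.0639) and replicates 1 and 3 of the treated cells (adjusted p = 0.0545 and 0.0558). Without replicate 1 of untreated parental cells, PPP1R15A also rose in parental cells (0.33, adjusted p = 0.0363) and was higher in untreated SDS22-degron than in untreated parental cells (0.37, adjusted p = 0.0254). Without replicate 2 of that group the interaction was 0.65 (adjusted p = 0.0154).

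PPP1R15B was at 161, 166 and 164 CPM in untreated and at 163, 149 and 166 CPM in treated parental cells. SDS22-degron libraries had 152, 155 and 137 CPM untreated and 123, 103 and 123 CPM treated, below all other libraries. Dox/IAA moved PPP1R15B by -0.35 on the log2 scale in SDS22-degron cells (standard error 0.0749, adjusted p = 0.000811), and in parental cells it was -0.04 (adjusted p = 0.72). Between the treated lines it was -0.45 (standard error 0.07495, adjusted p = 8.69e-05). The interaction of PPP1R15B was -0.31 (standard error 0.1054) and just missed the threshold (adjusted p = 0.06), and 8 of 21 alternatives called it, among them 5 that left out a library (replicate 2 of untreated or treated parental cells, replicate 3 of untreated SDS22-degron cells, or replicate 1 or 3 of treated ones), with -0.34 to -0.36. Other tested genes within 5 Mb had a median log2 difference of 0.22 between the treated lines. Of the promoters above, that of PPP1R15A holds the CRE and that of PPP1R15B the CARE. Both genes and motifs were chosen with the values known, and a link between motif and direction was not tested.

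Of the inhibitors, 6 of 12 members were tested. With Dox/IAA in SDS22-degron cells, 4 rose and 1 fell (26.0% and 25.5% of all genes), with a median log2 fold change of 0.43. In parental cells 2 rose and 1 fell (15.9% and 15.7% of all genes), with a median of 0.33. The median of all tested genes was 0.00 in both lines. The interaction was called for 2 of the 6, where 14.4% of all genes were called. PPP1R14B (PHI-1; ENSG00000173457, chromosome 11, 64244480 to 64246941) fell in both lines. It was at 83.7, 103.4 and 105.0 CPM in untreated and at 76.03, 85.7 and 83.0 CPM in treated parental cells. SDS22-degron libraries had 86.5, 93.1 and 99.6 CPM untreated and 52.6, 55.4 and 56.2 CPM treated. Treated SDS22-degron libraries lay below all others, whereas the parental groups overlapped.

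The log2 fold change of PPP1R14B with Dox/IAA was -0.77 (standard error 0.0858, adjusted p = 7.41e-07) in SDS22-degron and -0.26 (standard error 0.0841, adjusted p = 0.0268) in parental cells. The call in parental cells was lost with any of 4 of the 6 libraries left out (adjusted p up to 0.131). These were replicates 2 and 3 of the untreated and replicates 1 and 3 of the treated parental cells. With scaling by library size only it was -0.20 (adjusted p = 0.0867), and in a fit of the compared groups alone it was -0.25 (adjusted p = 0.0644). Its interaction was -0.51 (standard error 0.12, adjusted p = 0.00764), and between the treated lines it was -0.58 (standard error 0.0863, adjusted p = 2.9e-05). The processed pseudogene PPP1R14BP3 had nearly the same pattern, with group means of 70.6 and 58.3 CPM in parental and 67.3 and 39.2 CPM in SDS22-degron cells (untreated and treated) and an interaction of -0.50 (adjusted p = 0.00892). Reads shared by PPP1R14B and PPP1R14BP3 cannot be told apart in counts per gene.

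PPP1R14C (KEPI; ENSG00000198729, chromosome 6, 150143076 to 150250357) differed between the lines before any treatment. It was at 6.75, 9.23 and 6.59 CPM in untreated and at 12.3, 16.4 and 11.2 CPM in treated parental cells. SDS22-degron libraries had 23.9, 26.1 and 27.3 CPM untreated and 26.2, 24.5 and 29.5 CPM treated. It rose in parental cells, while the treated and untreated SDS22-degron libraries overlapped at a higher level. Untreated, the lines differed by 1.77 (standard error 0.1452, adjusted p = 8.27e-08) on the log2 scale, and treated by 1.01 (standard error 0.1339, adjusted p = 7.79e-06).

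Dox/IAA gave a log2 fold change of PPP1R14C of 0.81 (standard error 0.1557, adjusted p = 0.00072) in parental and 0.05 (standard error 0.1246, adjusted p = 0.752) in SDS22-degron cells. The interaction of PPP1R14C was -0.76 (standard error 0.1997, adjusted p = 0.0156). It was -0.67 (adjusted p = 0.0502) without replicate 3 of untreated parental cells and -0.57 (adjusted p = 0.0512) without replicate 2 of treated parental cells. Other tested genes within 5 Mb had median log2 differences of 0.03 between the untreated and 0.12 between the treated lines.

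PPP1R1A (inhibitor-1, a PP1 inhibitor once protein kinase A phosphorylates it; ENSG00000135447, chromosome 12, 54575387 to 54588659) showed the largest difference between the lines among the members. It was at 0.338, 0.0782 and 0.247 CPM in untreated parental cells, from 4, 1 and 3 reads. It was at 0.675, 1.26 and 0.708 CPM in treated parental cells, at 2.04, 1.99 and 2.28 CPM in untreated and at 3.89, 4.57 and 2.96 CPM in treated SDS22-degron cells. The 4 groups did not overlap. The log2 difference between the untreated lines was 3.21 (standard error 0.4139, adjusted p = 1.47e-05) and between the treated lines 2.11 (standard error 0.2744, adjusted p = 6.31e-06). Dox/IAA raised PPP1R1A by 1.97 (adjusted p = 0.00604) in parental and 0.86 (adjusted p = 0.00415) in SDS22-degron cells, and the interaction was -1.11 (adjusted p = 0.204). PPP1R1A passed the filter on low counts only through the SDS22-degron libraries, where it was higher. A fit of the parental groups alone tested 29 members. PPP1R1A and PPP1R36 were not among them, so that fit gives no check of their parental calls.

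The other tested inhibitors rose with Dox/IAA in SDS22-degron cells, by log2 fold changes of 0.49 for PPP1R2 (inhibitor-2), 0.44 for PPP1R2P3 and 0.43 for PPP1R1C. In parental cells PPP1R2 had 0.33 (adjusted p = 0.0589), PPP1R2P3 0.33 (adjusted p = 0.0508) and PPP1R1C 0.17 (adjusted p = 0.436). With the replicate number as a block, PPP1R2 (0.34, adjusted p = 0.0242) and PPP1R2P3 (0.33, adjusted p = 0.0485) were called there. In all, 9 of 16 alternatives called PPP1R2 in parental cells and 6 of 16 called PPP1R2P3, among them those without replicate 2 of the untreated cells for PPP1R2 (0.41, adjusted p = 0.0383) and without replicate 2 of the treated cells for PPP1R2P3 (0.39, adjusted p = 0.0373). PPP1R2P3, which RefSeq names PPP1R2B, arose from a copy of PPP1R2, so reads of the pair may have been split between them. The call of PPP1R1C was lost with any of 4 of the 6 libraries left out (adjusted p up to 0.0716), which were replicates 1 and 2 of the untreated and of the treated SDS22-degron cells.

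The 3 actin and neuronal scaffolds gave 1 call in each line comparison and none with Dox/IAA. Of all genes, 44.9% were called between the treated and 28.2% between the untreated lines. With Dox/IAA, 51.5% were called in SDS22-degron and 31.6% in parental cells. PPP1R18 (phostensin, which binds actin filaments; ENSG00000146112, chromosome 6, 30676389 to 30687895) was at 58.9, 69.5 and 70.4 CPM in untreated and at 76.6, 62.3 and 68.4 CPM in treated parental cells. SDS22-degron libraries had 43.7, 48.6 and 48.9 CPM untreated and 46.5, 37.7 and 46.6 CPM treated. The lines did not overlap, whereas treated and untreated libraries of each line did. The log2 difference of PPP1R18 was -0.67 (standard error 0.0979, adjusted p = 2.37e-05) between the treated and -0.49 (standard error 0.0973, adjusted p = 0.000884) between the untreated lines. PPP1R18 lies on chromosome 6 near PPP1R10 and PPP1R11, and other tested genes within 5 Mb had medians of 0.01 and 0.00. PPP1R9A (neurabin) and PPP1R9B (spinophilin) had between -0.19 and 0.13 in these 2 comparisons and were not called. Without replicate 2 of treated parental cells, PPP1R9A was lower in treated SDS22-degron cells (-0.23, adjusted p = 0.0472).

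The glycogen-targeting subunits bring PP1 to glycogen particles, where it switches on glycogen synthase. All 4 tested members were called with Dox/IAA in SDS22-degron cells, 3 higher and 1 lower (51.5% of all genes were called). In parental cells 1 was called, higher (31.6% of all genes), and the interaction was called for 0 of the 4, by the quasi-likelihood test of edgeR as by DESeq2. At an unadjusted p under 0.05 it was called for 2, PPP1R3E and PPP1R3B. PPP1R3F rose by 0.84 in SDS22-degron and by 1.00 in parental cells on the log2 scale, and it was higher in SDS22-degron cells by 1.00 treated and 1.16 untreated. PPP1R3D (0.53) and PPP1R3B (0.36) rose with Dox/IAA in SDS22-degron cells and were higher between the treated lines (0.38 and 0.43). PPP1R3E fell by 1.154 on the log2 scale in SDS22-degron cells (adjusted p = 0.000148) and was lower by -0.66 between the treated lines. In parental cells PPP1R3E had -0.40 (adjusted p = 0.136).

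Several of these calls rest on single libraries. The call of PPP1R3B with Dox/IAA was lost without replicate 2 or 3 of untreated or replicate 1 or 2 of treated SDS22-degron cells, and without that replicate 1 it was 0.23 (adjusted p = 0.179). PPP1R3F had 0.67 (adjusted p = 0.0561) in SDS22-degron cells without replicate 1 of the untreated and 0.66 (adjusted p = 0.0645) without replicate 3 of the treated cells. PPP1R3F had 0.63 (adjusted p = 0.137) in parental cells without replicate 2 of the untreated cells and 0.77 (adjusted p = 0.138) without replicate 3 of the treated cells. Between the treated lines, PPP1R3D was lost without replicate 2 or 3 of either line (adjusted p up to 0.0997), PPP1R3B without replicate 3 of parental or replicate 1 of SDS22-degron cells (up to 0.077), and PPP1R3E without replicate 1 or 2 of parental or replicate 3 of SDS22-degron cells (up to 0.114). Between the untreated lines, PPP1R3F was lost without replicate 2 of either line (adjusted p up to 0.071). The interaction of PPP1R3E was -0.76 (adjusted p = 0.0887), and without replicate 3 of treated parental cells it was -0.93 (adjusted p = 0.0372). PPP1R3E shares its strand and 3805 bases with HOMEZ (4594 reads, against 772 for PPP1R3E), and PPP1R3D lies inside FAM217B on the other strand (3600 reads against 1081). How the reads in such overlaps were assigned is not given in the sources used here.

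PPP1R13B (ASPP1) and PPP1R13L (iASPP) bind p53 and PP1 and are known to promote and to block apoptosis by p53, respectively. PPP1R13B was higher in all 4 comparisons of 2 groups, as were PPP1R1A, PPP1R3F and PPP1R37. Each group enters 2 of these comparisons, so the 4 calls of a gene are not independent. The share of all genes higher in all 4 was not computed. PPP1R13B was at 14.8, 12.3 and 13.8 CPM in untreated and at 19.9, 21.1 and 23.7 CPM in treated parental cells. SDS22-degron libraries had 19.5, 20.8 and 19.3 CPM untreated and 28.2, 27.6 and 30.1 CPM treated. Treated libraries lay above untreated ones in each line, and SDS22-degron above parental libraries at each treatment. The log2 fold change of PPP1R13B with Dox/IAA was 0.66 (standard error 0.0998, adjusted p = 8.91e-05) in parental and 0.53 (standard error 0.0926, adjusted p = 0.000109) in SDS22-degron cells. The lines differed by 0.55 (standard error 0.09997, adjusted p = 0.000474) untreated and 0.41 (standard error 0.0925, adjusted p = 0.0014) treated. PPP1R13L rose by 0.38 with Dox/IAA in SDS22-degron cells (adjusted p = 0.00326) and had 0.24 (adjusted p = 0.0737) in parental cells, where it was called without replicate 3 of the untreated cells (0.34, adjusted p = 0.0161), with the replicate number as a block (adjusted p = 0.0341) and with scaling by library size only (0.29, adjusted p = 0.0231).

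Of the remaining members, PPP1R36 was rare and changed most. It was at 0.169, 0.235 and 0.0824 CPM in untreated parental and at 0.0729, 0.206 and 0.228 CPM in untreated SDS22-degron cells, from 1 to 3 reads per library. With Dox/IAA it was at 0.75, 0.395 and 0.472 CPM in parental and at 0.915, 1.16 and 1.56 CPM in SDS22-degron cells, from 5 to 19 reads. Treated libraries lay above untreated ones in both lines. PPP1R36 passed the filter on low counts only through the treated SDS22-degron libraries (12, 15 and 19 reads), where it was highest. Its calls therefore depend in part on a filter that used the same values. The log2 fold change of PPP1R36 was 2.77 (standard error 0.4541, adjusted p = 5.53e-05) in SDS22-degron and 1.68 (standard error 0.5618, adjusted p = 0.0295) in parental cells. The parental call was lost without replicate 1 or 3 of the untreated or of the treated cells, and without replicate 1 of the treated cells it was 1.36 (adjusted p = 0.136). It was also lost with DESeq2 (1.73, adjusted p = 0.0834) and with no filter on low counts (adjusted p = 0.0581). Between the treated lines PPP1R36 was higher by 1.14 (adjusted p = 0.0148), which was lost without replicate 2 or 3 of parental or replicate 3 of SDS22-degron cells (adjusted p up to 0.0811) and with DESeq2 (1.17, adjusted p = 0.0825). The interaction of PPP1R36 was 1.09 (adjusted p = 0.44).

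PPP1R35, which acts in centriole elongation, fell by 0.40 on the log2 scale with Dox/IAA in SDS22-degron cells (adjusted p = 0.00143) and had -0.17 (adjusted p = 0.175) in parental cells, where it was -0.27 (adjusted p = 0.0289) without replicate 2 of the treated cells. PPP1R21 rose by 0.35 in SDS22-degron and 0.23 in parental cells, the latter lost without replicate 2 or 3 of untreated or replicate 1 or 3 of treated parental cells (adjusted p up to 0.145), with DESeq2 (adjusted p = 0.0512), with no filter (adjusted p = 0.106) and in a fit of the compared groups alone (adjusted p = 0.0663). The 4 log2 differences of PPP1R37 were 0.24 to 0.31, and it shares its whole length and strand with a MARK4 transcript model. Reads of PPP1R37 and MARK4 therefore cannot be assigned with certainty. The difference of PPP1R37 between the untreated lines was lost without replicate 1 or 2 of parental or replicate 2 or 3 of SDS22-degron cells (adjusted p up to 0.12). It was also lost between the treated lines without replicate 3 of treated SDS22-degron cells (adjusted p = 0.0547) and with Dox/IAA in parental cells without replicate 1 of the untreated cells (adjusted p = 0.0521). PPP1R32 was not called in any comparison.

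**Figure D4:**
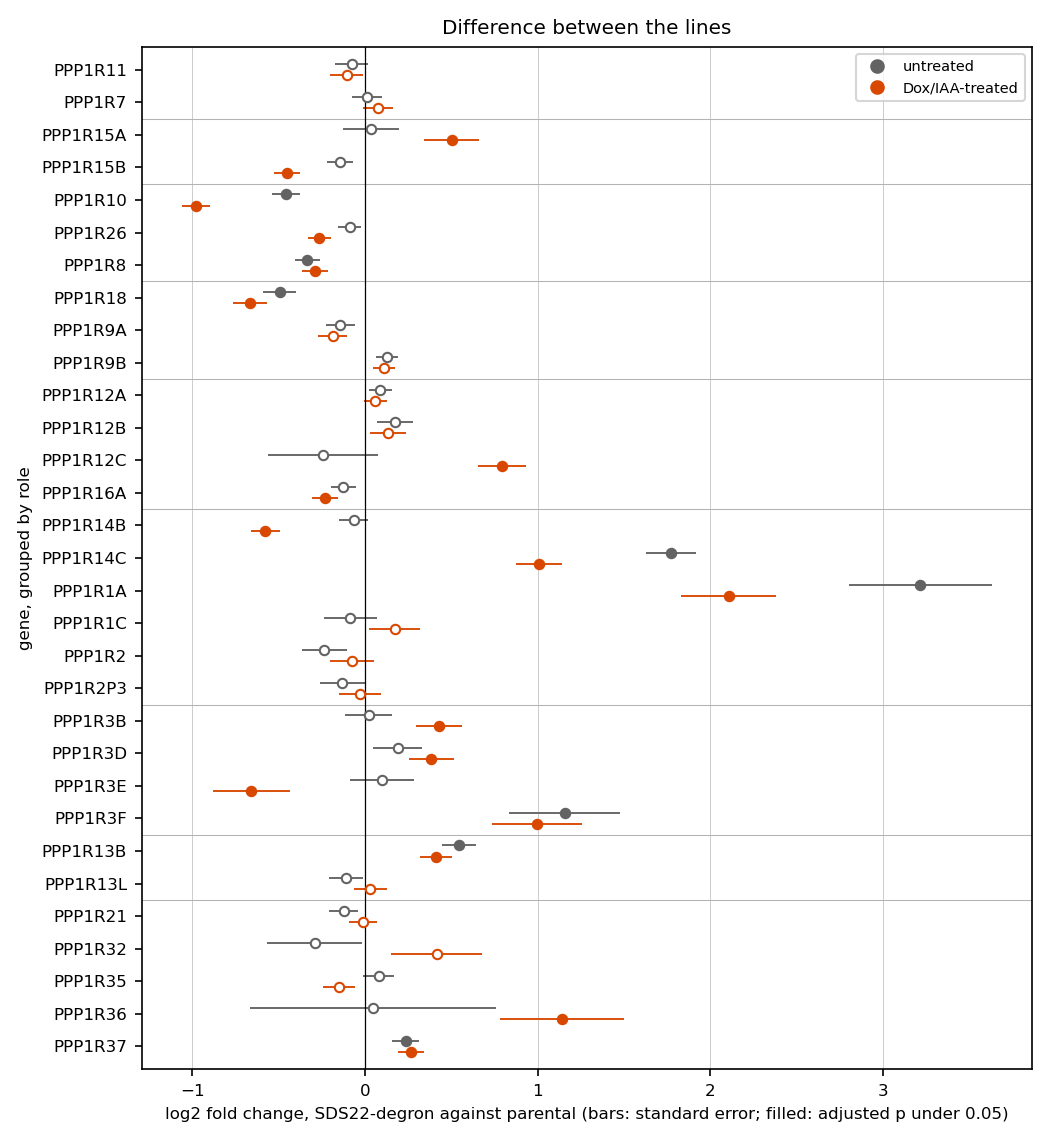
Log2 difference between SDS22-degron and parental cells of the 31 tested PPP1R genes, untreated (grey) and Dox/IAA-treated (orange), grouped by role. Bars are standard errors and filled points have an adjusted p under 0.05. The 8 genes called in both states differ in the same direction, as do 95.4% of all tested genes called in both, with PPP1R1A (3.21 and 2.11) and PPP1R14C (1.77 and 1.01) farthest to the right and PPP1R10 lowest between the treated lines (-0.98).

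The catalytic subunits of PP1 and PP1 partners with other symbols were listed for comparison. Of the 3 catalytic subunit genes, PPP1CC fell by 0.42 on the log2 scale with Dox/IAA in SDS22-degron cells (adjusted p = 0.000239), from a mean of 334.6 to 250.7 CPM, and had -0.16 (adjusted p = 0.126) in parental cells. Its interaction was -0.25 (adjusted p = 0.14), and between the treated lines PPP1CC was lower by -0.21 (adjusted p = 0.041). PPP1CA had 0.08 (adjusted p = 0.306) in SDS22-degron cells and rose by 0.22 (adjusted p = 0.00837) in parental cells, and PPP1CB was not called in either line. The 30 PP1 partners with other symbols were listed with earlier results known, and their values describe this list only. They include genes of cell division such as KNL1, and WDR82 and TOX4 through their complex with PNUTS. Of the 30 partners, 28 were tested. With Dox/IAA in SDS22-degron cells, 5 of them rose and 18 fell, where 26.0% of all genes were called higher and 25.5% lower. Their median log2 fold change was -0.35, beside 0.23 for the tested PPP1R members and 0.00 for all tested genes. In parental cells 3 rose and 5 fell (15.9% and 15.7% of all genes), with a median of -0.06. The interaction was called for 10, all lower, where 8.35% of all genes were called lower. The 3 lowest interactions were those of MKI67 (-1.38, adjusted p = 2.76e-05), CENPE (-1.28, adjusted p = 0.000119) and KNL1 (-1.27, adjusted p = 0.000315).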

How the data were processed

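The authors deposited raw counts of single-end reads per gene for 12 poly-A selected libraries, with the length and the percent GC of each gene, and without normalization. Per the submitters' processing notes, tools named are cutadapt 1.15, Bowtie2 2.3.3.1, STAR 2.5.2b, SAMtools 1.5 and featureCounts 1.5.3 with GRCh38. The kit keeps strand, but the counting's strand setting, the annotation release and the treatment of reads that match several genes are not given in the sources used here. All 42 members overlapped their RefSeq position in GRCh38.p14.

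Groups came from the labels. Counts were fitted with edgeR 4.0.16 (R 4.3.3; TMM, filterByExpr with minimum count 10, 4 group means, no other term), and comparisons used the quasi-likelihood F test with Benjamini-Hochberg adjustment over 16657 genes. CPM are TMM-normalized, and RPKM divides them by the deposited length. Total counts of 12133915 to 14657508 per library gave a median standard error of 0.11 on the log2 scale between 2 groups. No 2 libraries were identical, and replicates differed by more than counting noise. The script was tested on simulated data.

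The members and gene lists were chosen with earlier results of these data known, and lists are therefore described without a test. Values in full are given for PPP1R7, PPP1R11, members with a called interaction and, in each other comparison, the 4 called members with the smallest p. DESeq2 1.42.0, edgeR's likelihood ratio test, 2 further scalings, 2 further filters, fits of the compared groups alone, a block for the replicate number, a GC correction (loess, span 0.5) with and without this block, leaving out each library, and the cut-off of the study were tried as alternatives. The labels do not say that a replicate number marks a shared batch. The deviations of same-numbered libraries correlated by more than 0.1 in all 3 pairs of untreated and treated parental cells (0.124, 0.246 and 0.131) and of the treated lines (0.101, 0.133 and 0.138), but not in all pairs of the other comparisons. In these 2 comparisons the value with this block is given beside each result of a member whose call it changes. Genes that are no members, such as catalytic subunits, other PP1 partners, pseudogenes and neighbouring genes, were not checked with any alternative. Plots used matplotlib 3.10.9.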

Additional observations from a re-analysis of the deposited data

Results flagged for a closer look

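For 3 members the Dox/IAA effect differed between the lines by the test of the interaction itself (SDS22-degron minus parental, edgeR's quasi-likelihood test with adjustment over all tested genes). They are 9.68% of the tested members, while 14.4% of all tested genes were called (8.35% lower). PPP1R10 (PNUTS) had -0.52 on the log2 scale (adjusted p = 0.0046), with all 3 treated below all 3 untreated libraries in SDS22-degron cells and overlapping libraries in parental cells. PPP1R14B had -0.51 (adjusted p = 0.00764), with all 3 treated below all 3 untreated libraries in SDS22-degron cells and overlap in parental cells, and its pseudogene PPP1R14BP3 had -0.50. PPP1R14C had -0.76 (adjusted p = 0.0156), with all 3 treated above all 3 untreated libraries in parental cells and overlapping libraries in SDS22-degron cells.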

How the results depend on the processing

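The next counts leave out the study's cut-off, and an alternative that did not test a member was skipped for it. Of 60 calls of a member in a comparison, 39 held under every alternative so counted and 21 were lost under at least 1. Of 95 pairs of a member and a comparison that were not called, 17 were called under at least 1 alternative, and 0 pairs changed sign while called. The study's cut-off gave 3 members between the treated lines (18 by adjusted p alone), 3 between the untreated lines (8), 3 with Dox/IAA in SDS22-degron cells (21), 4 in parental cells (10) and 1 in the interaction (3). This cut-off asks for a fold change that most called members do not reach. For the interaction, no filter gave 6 members, where 8.89% of all genes in that fit were called. The GC correction with the replicate block also gave 6, where 19.9% were called. Both include PPP1R10, PPP1R14B and PPP1R14C. With each library left out in turn, the counts were 14 to 17 between the treated lines, 6 to 8 between the untreated lines, 17 to 20 with Dox/IAA in SDS22-degron cells, 6 to 12 in parental cells and 3 to 5 in the interaction. The shares of all genes called moved as well. In the same order they were 38.4% to 41.1%, 20.7% to 25.6%, 44.4% to 47.6%, 23.2% to 30.8% and 9.92% to 17.4%. Scaling by library size only gave 14 higher and 0 lower in parental cells, against 9 and 1. Of all genes, 32.8% were called with that scaling, against 31.6%. The 6 in parental cells came without replicate 3 of the treated cells. The 5 in the interaction came without replicate 2 of untreated parental or replicate 3 of untreated SDS22-degron cells.

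With the replicate number as a block, the counts were 18 between the treated lines, 8 between the untreated lines, 21 with Dox/IAA in SDS22-degron cells, 14 in parental cells and 5 in the interaction, where 48.2%, 32.3%, 54.5%, 35.9% and 18.8% of all genes were called. In parental cells this added PPP1R2, PPP1R2P3, PPP1R8 and PPP1R13L, and in the interaction PPP1R15B (-0.31, adjusted p = 0.0384) and PPP1R3E (-0.75, adjusted p = 0.0424). It changed no other call of a member. Over all groups, deviations of same-numbered libraries correlated by -0.06 to 0.25 (median 0.0946, 7 of 18 pairs over 0.1), and 11 of 12 libraries correlated best with their own number, which is a hint from the data and not part of the design.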
